A study of Mus musculus with 2 samples.

Results

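The genes described here are 7 members of the lipogenic programme. They are the transcription factors Srebf1 and Mlxipl, the enzymes Acly and Fasn, which make palmitate, and the desaturases Scd1, Scd2 and Fads1. They were taken by gene symbol from the authors' deposited table, in which each is represented by 1 probe set, and they are 7 of the 1559 genes that the table names. RNA came from tissue labelled as jejunum of male C57BL/6J mice aged 10 weeks. From an age of 6 weeks the mice ate either regular chow (AIN76), here the control, or HGD, a high-glucose diet with 20% glucose, for 4 weeks. One Affymetrix array was hybridised per diet, and the sources used here do not give whether animals were pooled for it. With 1 array per diet no value below has a replicate error, no test of the diet was possible, and diet, animal and hybridisation cannot be told apart.

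Each gene has 2 deposited measures. The first is the MAS5 signal, a linear brightness of the probe set, on each array. The high-glucose array was dimmer over most of its probe sets. The median log2 ratio of high-glucose over control was -0.97 (1.96-fold lower) over the 11313 expressed probe sets, those whose mean log2 signal reached the median of the array, equal to a signal of 9.45. Subtracting this array-wide shift gives the relative log2 ratio. The second measure is the signal log ratio (SLR) of the authors' deposited table, on the log2 scale with negative values for a lower level on the high-glucose diet. Probe sets differ in affinity, so a level is compared between the arrays and does not rank one gene against another.

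Cells make new fatty acids in the cytosol from citrate exported by mitochondria. ATP citrate lyase (Acly) cleaves that citrate to acetyl-CoA, and fatty acid synthase (Fasn) builds palmitate from acetyl-CoA and malonyl-CoA. Stearoyl-CoA desaturases such as Scd1 and Scd2 place the first double bond in saturated acyl chains, and Fads1 desaturates polyunsaturated chains on the way to arachidonic acid. The programme is switched on at the transcript level by SREBP-1, the product of Srebf1, which is controlled by insulin and sterols, and by ChREBP, the product of Mlxipl, which responds to sugar. Liver and adipose tissue are the classical sites of this synthesis, and the small intestine carries the same enzymes.

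Start-site windows from RefSeq (build GRCm38.p6), each 250 bases before to 50 bases after an annotated transcription start, were found for 4 of the 7 genes in 7 windows. Windows for Scd1, Scd2 and Fads1 were not used here. The windows of Acly and Fasn are printed because these genes had the lowest relative log2 ratios. A window of each transcription factor is printed as the gene that encodes a regulator of the programme. Capitals mark matches on either strand to the box CCAAT, bound by NF-Y, a partner of SREBP factors, and to the E-box CACGTG, which ChREBP and other bHLH factors can bind. The windows are Acly at chr11:100527951-100528250 (minus strand), Fasn at chr11:120824498-120824797 (minus strand), Mlxipl at chr5:135089640-135089939 (plus strand) and Srebf1 at chr11:60210422-60210721 (minus strand), all read 5′ to 3′ along the gene.
Acly: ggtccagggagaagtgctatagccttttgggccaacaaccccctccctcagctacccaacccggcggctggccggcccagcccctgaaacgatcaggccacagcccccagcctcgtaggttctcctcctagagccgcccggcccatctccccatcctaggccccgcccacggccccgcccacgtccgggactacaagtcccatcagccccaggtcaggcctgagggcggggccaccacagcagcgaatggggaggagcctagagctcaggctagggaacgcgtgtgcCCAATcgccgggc
Fasn: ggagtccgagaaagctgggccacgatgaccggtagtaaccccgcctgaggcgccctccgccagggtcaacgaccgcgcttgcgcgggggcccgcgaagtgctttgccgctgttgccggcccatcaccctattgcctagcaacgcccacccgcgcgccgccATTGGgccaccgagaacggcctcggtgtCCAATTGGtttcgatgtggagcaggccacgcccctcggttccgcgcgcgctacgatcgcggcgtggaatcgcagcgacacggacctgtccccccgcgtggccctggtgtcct
Mlxipl: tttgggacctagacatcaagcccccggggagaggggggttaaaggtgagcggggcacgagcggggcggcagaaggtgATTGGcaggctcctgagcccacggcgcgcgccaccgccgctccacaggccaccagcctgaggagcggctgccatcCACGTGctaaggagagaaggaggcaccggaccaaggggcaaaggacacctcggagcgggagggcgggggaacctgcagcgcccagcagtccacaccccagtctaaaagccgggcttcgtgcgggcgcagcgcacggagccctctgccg
Srebf1: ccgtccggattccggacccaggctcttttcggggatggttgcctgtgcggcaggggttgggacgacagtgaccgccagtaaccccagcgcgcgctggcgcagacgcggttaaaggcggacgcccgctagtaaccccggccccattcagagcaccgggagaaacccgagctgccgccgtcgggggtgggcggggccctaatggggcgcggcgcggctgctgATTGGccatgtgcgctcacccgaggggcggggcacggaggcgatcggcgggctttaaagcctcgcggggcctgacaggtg

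The E-box CACGTG occurred in 1 of the 7 windows, that of Mlxipl printed above, where it begins 98 bases before the start, and in 7.15% of all 32851 windows. A CCAAT box lay in 5 of the 7 windows, against 37.4% of all windows. It lay in all 4 printed windows, in that of Acly after the start. Mlxipl and Srebf1 have other windows that are not printed. Those at chr5:135106641-135106940 (Mlxipl) and chr11:60220578-60220877 (Srebf1) held none, and that at chr11:60222532-60222831 (Srebf1) held 1. The Fasn window held 3 CCAAT boxes, on both strands, and 2 of these overlap. The Sp1 GC box GGGCGG, not capitalised here, lay in 4 of the 7 windows and in 35.7% of all. These are matches of letters in a short window and show no binding.

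Both transcription factors had lower signals on the high-glucose diet. The Srebf1 signal was 173.4 for the control and 68.4 for the high-glucose diet, which is 39.4% of control. Most of that difference was the array-wide shift, and the relative log2 ratio of Srebf1 was -0.37 (1.29-fold lower). Of all expressed probe sets, 23.8% lay lower than Srebf1, which sat just below their lower quartile of -0.35. Srebf1 makes the isoforms SREBP-1a and SREBP-1c from separate start sites, and 1 probe set does not tell them apart. Mlxipl had signals of 59.7 and 18.6, or 31.2% of control. Its relative log2 ratio was -0.71 (1.64-fold lower), and 10.4% of expressed probe sets lay lower.

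The cytosolic enzymes stood farthest below the shift among the 7 genes. The Acly signal was 311.6 for the control and 62.6 for the high-glucose diet, so that 20.1% of the control signal was left. Its relative log2 ratio was -1.34 (2.54-fold lower), and only 2.32% of the expressed probe sets lay lower. Fasn had signals of 127 and 28.6, with 22.5% of the control signal left. Its relative log2 ratio was -1.18 (2.26-fold lower), with 3.31% of expressed probe sets below it. These were the members past 2-fold relative to the shift, 2 of 6 expressed, against a background of 5.34% of the 1067 expressed named genes.

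Relative to the shift, Fads1 lay lower than Scd1, and that difference depended on how the arrays were centred. Fads1 had signals of 590.3 and 194.6, or 33.0% of control, and a relative log2 ratio of -0.63 (1.55-fold lower), just beyond the 1.5-fold mark. Scd1 was the brightest of the 7 probe sets, with signals of 5091 and 2328, or 45.7% of control. Its relative log2 ratio of -0.16 put it close to the shift, with 37.9% of expressed probe sets lower. That position depends on how very bright probe sets are treated. The 75 expressed probe sets within 0.5 log2 units of the Scd1 signal had a median relative log2 ratio of 0.47, and Scd1 lay 0.62 below that median. For the other 5 expressed members the corresponding median of probe sets of like signal lay between -0.08 and -0.06. Scd2, the isoform known for expression outside the liver, had signals of 6.6 and 3.8, which did not count as expressed. Its relative log2 ratio was 0.18, the only one of the 7 above the shift.

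**Figure D1:**
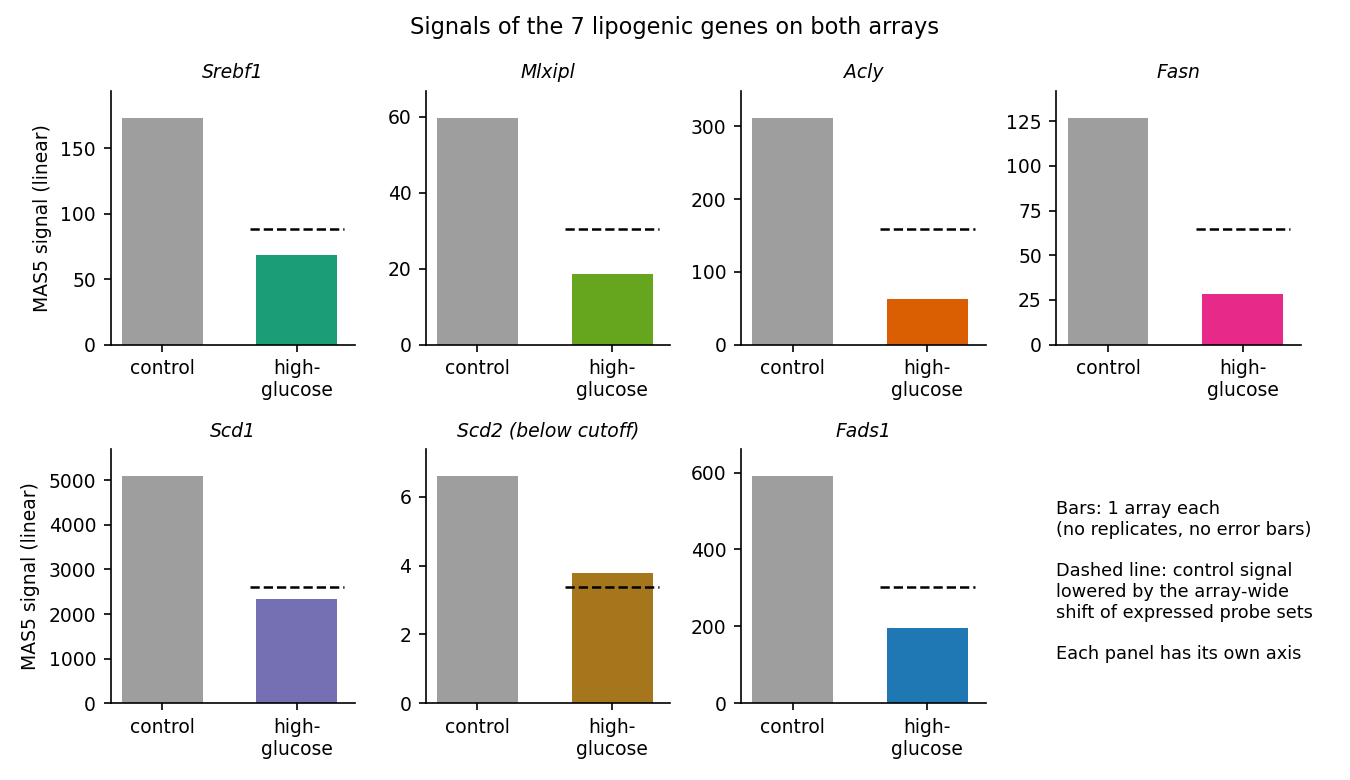
MAS5 signal (linear axis, a separate scale in each panel) of each gene for the control (grey) and the high-glucose diet (colour), 1 array per bar. The dashed line is the control signal lowered by the array-wide shift of 1.96-fold: the high-glucose bars of Acly (62.6) and Fasn (28.6) end far below it, Scd1 (2328) just below it and Scd2 (3.8), which is below the expression cutoff, above it.

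As deposited, all 7 signals were lower on high glucose, as were those of 95.8% of expressed named genes. Relative to the shift, 4 of the 6 expressed members (Acly, Fasn, Mlxipl and Fads1) were lower by 1.5-fold or more and 0 were at least 1.5-fold higher. The background was 13.7% of expressed named genes lower by that fold and 13.7% higher. The median relative log2 ratio of the 6 expressed members was -0.67 (1.59-fold lower), against -0.01 for expressed named genes and 0 by construction for expressed probe sets, whose quartiles lay at -0.35 and 0.36. In the plot of that distribution, Acly and Fasn lie in the lower tail, Srebf1 just below the lower quartile and Scd1 between the quartiles.

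**Figure D2:**
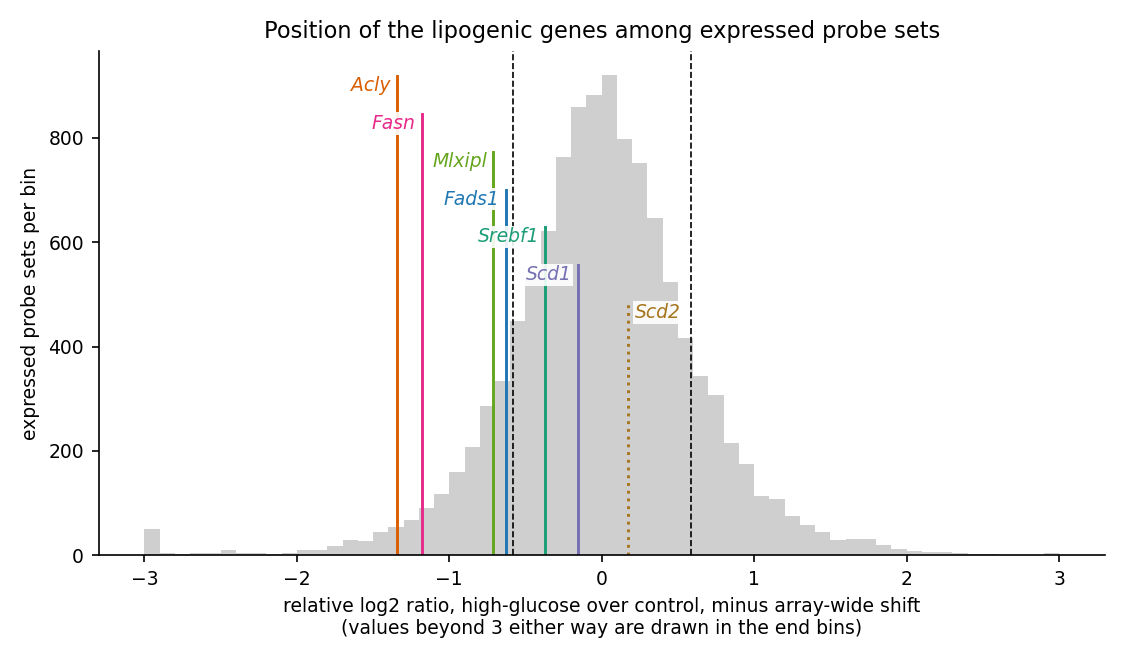
Histogram of the relative log2 ratio (x axis, log2 units) over the 11313 expressed probe sets (y axis, probe sets per bin), with each gene as a vertical line and the 1.5-fold marks dashed. Acly (-1.34) and Fasn (-1.18) lie in the lower tail, Mlxipl (-0.71) and Fads1 (-0.63) just beyond the mark, Srebf1 (-0.37) and Scd1 (-0.16) inside it, and Scd2 (dotted, not expressed) at 0.18.

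Relative to the array-wide shift, the order of the expressed members, from lowest, was Acly, Fasn, Mlxipl, Fads1, Srebf1 and Scd1. A second probe set is the only repeat measurement of a gene that an array holds. Where both probe sets of a gene were expressed (19 genes), the difference between their relative log2 ratios had an SD of 0.51, which covers probe set differences and not variation between mice. All 5 gaps between neighbours in the order were smaller, so no neighbouring pair differed beyond this spread. The widest was 0.47 between Fasn and Mlxipl, and the others were 0.08 to 0.26. The ends of the order, Acly (-1.34) and Scd1 (-0.16), lay farther apart than this SD. They were picked by sorting, and the lowest and highest of several values can lie that far apart through spread alone. This gap therefore does not decide whether Acly and Scd1 differed, which was not tested. They lay closer under the loess (-1.28 and -0.55) and quantile (-1.23 and -0.57) centrings described below.

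Ranks within each array, which need no scaling, were also lower. Fasn stood at percentile 86.8 on control and 77.8 on high glucose. Mlxipl went from percentile 77.7 to 70.4 and Acly from 93.5 to 87.3. These were the largest differences among the 7 genes. Srebf1 (89.6 and 88.1), Fads1 (96.3 and 94.7), Scd1 (99.9 and 99.7) and Scd2 (35.3 and 32.5) differed by less than 3 percentile points between the arrays. All 7 had the lower percentile on the high-glucose array, as did 48.6% of expressed named genes. Near the top of an array, as for Scd1, a percentile has little room to differ.

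The authors' deposited table gave a negative SLR to all 7 genes, where 64% of its 1625 probe sets are negative. Among expressed named genes the share was 73.3%. The median SLR of the 7 genes was -0.9, against -0.4 over the whole table and -0.5 over its negative entries. Scd2 had the lowest SLR of the 7 in the authors' deposited table at -2.3, a 4.92-fold lower level, and 29 probe sets of the table lay lower still. Srebf1 followed at -1.0, Fasn and Fads1 at -0.9 each, Scd1 at -0.6, Mlxipl at -0.5 and Acly at -0.4. The sources used here do not state how the authors chose which probe sets to list, and a gene entered this description only if listed, so the shared sign is a property of the listing as well.

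The order of the genes differed between the measures. For some genes the SLR does not follow from the deposited signals. The authors' deposited table lists the acinar gene Clps at 1.2, while the log2 ratio of its signals was -5.80. It lists the liver gene Plg at 4.2, with -0.99 by signal. Both genes were picked as examples after their values were seen. How far the measures agree over all listed genes was not tested. Whether both measures come from the same hybridisations is unknown, so values set side by side here are separate descriptions and neither checks the other. The relative log2 ratio is centred by the array-wide shift. The SLR was left as deposited, with a median of -0.4 over the whole table. Differences between the measures therefore mix different zero points, and which genes lie close depends on that. Acly, lowest by signal at -1.34, had the SLR nearest to 0 in the authors' deposited table, and its SLR lay 0.94 above its relative log2 ratio. Scd2, the highest by signal at 0.18, had the lowest SLR, with an SLR minus relative log2 ratio of -2.48. The deposited signals of the Scd2 probe set were under the expression cutoff on both arrays. Fasn (-1.18 by signal and -0.9 by SLR), Fads1 (-0.63 and -0.9) and Mlxipl (-0.71 and -0.5) had values within 0.28 of each other. Srebf1 and Scd1 had an SLR lower than their relative log2 ratio by 0.63 and 0.44. Below the shift and with a negative SLR were 6 of the 6 expressed members, against 40.6% of expressed named genes.

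**Figure D3:**
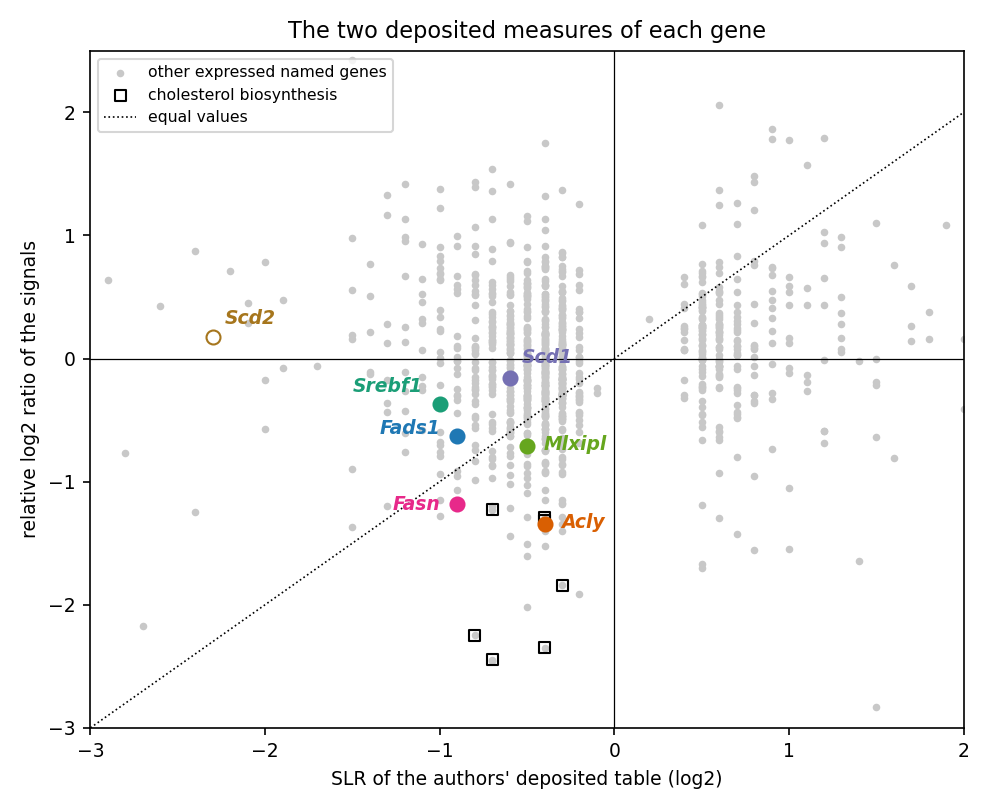
Relative log2 ratio of the signals (y axis) against the SLR of the authors' deposited table (x axis, log2) for expressed named genes (grey), the 7 lipogenic genes (coloured, Scd2 open because it is not expressed) and genes of cholesterol biosynthesis (squares). The dotted line marks equal values, with the SLR not centred, and 27 grey genes lie beyond the axes. Acly lies far below the line and Scd2 far above it, whereas Fasn, Fads1 and Mlxipl lie near it.

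The wider pathway was represented by few genes, because only genes of the authors' deposited table carry a name here. Of 31 further genes of fatty acid synthesis, elongation and desaturation, 2 were named. These were Elovl6, which elongates palmitate, with signals of 76 and 31.1, and Cyb5r3, a reductase of the electron chain that serves the desaturases, with 123.9 and 51.3. Their relative log2 ratios were -0.32 and -0.30, and both lay inside the 1.5-fold marks. Their SLRs in the authors' deposited table were -0.3 and -0.5.

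Of 17 genes that supply carbon or NADPH, 5 were named, all expressed. Pyruvate kinase Pklr, a classical target of ChREBP in liver, had signals of 107.8 and 29.2 and was the 1 gene past 1.5-fold lower, with a relative log2 ratio of -0.91. The hexokinase Hk2 was the 1 past 1.5-fold higher at 0.89, from low signals of 10.4 and 9.8. Among expressed named genes, 13.7% passed the lower mark and 13.7% the higher mark. Pgd, an NADPH-producing enzyme of the pentose phosphate pathway, stood at -0.43, Gpi1 at -0.24 and citrate synthase Cs at 0.06. All 5 SLRs in the authors' deposited table were negative, from -0.7 to -0.2. Negative SLRs made up 73.3% of those of expressed named genes and 64% of the whole table.

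Of 26 regulators and partners of the transcription factors, 4 were named and 3 expressed. Ppargc1b, a coactivator of SREBP-1, was past 1.5-fold higher at a relative log2 ratio of 0.71, with signals of 44.2 and 36.8. The nuclear receptors Rxra and Ppara lay near the shift at 0.14 and -0.03. Mlxip, which encodes the ChREBP paralogue MondoA, had signals of 19.4 and 4.1, a relative log2 ratio of -1.27, and a mean signal under the cutoff, so it did not count as expressed. Their 4 SLRs in the authors' deposited table ran from -0.7 to -0.3. Of 17 genes of glycerolipid synthesis, 3 were named and only Dgat2, which makes triacylglycerol, was expressed, with signals of 485.2 and 183.9. Relative to the shift it stood at -0.43. Its SLR was -1.2 in the authors' deposited table.

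Cholesterol biosynthesis, the pathway driven by the related factor SREBP-2, had 7 of its 20 listed genes named, all expressed. Of these 7, all were lower by 2-fold or more relative to the shift, against 2 of the 6 expressed lipogenic genes. Among all expressed named genes the share was 5.34%. The relative log2 ratios of the cholesterol genes ran from -2.45 to -1.23, with a median of -1.84. Those of the expressed lipogenic genes ran from -1.34 to -0.16. The ranges overlap only through Acly, which also supplies acetyl-CoA to sterol synthesis. The SLRs of the authors' deposited table gave the opposite order, with a median of -0.4 for the cholesterol genes and -0.9 for the lipogenic genes. Whether the pathways differed was not tested, since 1 array per diet allows no test.

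Markers of cell types were set beside these values, because liver and fat are rich in lipogenic enzymes. Of 14 enterocyte markers, 5 were named and 4 expressed. Fabp2, the intestinal fatty acid binding protein, had signals of 455.3 and 557.9, and the apolipoproteins Apoa1 and Apob, which liver also makes, had 7903 and 7173 and 2818 and 1588. The peptidase Anpep had 64.5 and 31.5. Slc5a1, the brush border glucose transporter, had 4.6 and 0.8 and did not count as expressed. The relative log2 ratios of the 4 expressed markers ran from -0.06 to 1.26 with a median of 0.49. Of these markers, 2 were past 1.5-fold higher, against 13.7% of expressed named genes. The summed signal of all 5 was 11245 on control and 9351 on high glucose, and their SLRs in the authors' deposited table ran from -0.4 to 0.7. Of 12 hepatocyte markers, 2 were named. Plasminogen (Plg) had signals of 3968 and 1994 and Serpina1a 5069 and 4065, which sum to 9037 and 6059 and lie above the 90th percentile of either array. Their relative log2 ratios were -0.02 and 0.65, while the authors' deposited table gives them SLRs of 4.2 and 1.2. The 4 named of 10 pancreatic acinar markers summed to 3751 on control and 87.8 on high glucose, with relative log2 ratios from -4.83 to -4.08. Their SLRs in the authors' deposited table ran from -1.3 to 1.2 with a median of -0.1, and 2 of the 4 were positive. Of 8 adipocyte markers only Lipe was named, with signals of 5.4 and 10.7 that did not count as expressed. In whole tissue, fewer cells of a type and less RNA per cell cannot be told apart. The part of these cell types in the lipogenic values was not tested.

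The centring of the arrays set the level of every ratio. Median, poly-A spike and trimmed mean centring subtract 1 constant from all genes and cannot change their order. Loess and quantile centring can, and both moved Scd1. Under loess centring Scd1 (-0.55) lay below Srebf1 (-0.30). Under quantile centring Scd1 (-0.57) lay below Fads1 (-0.54) and Srebf1 (-0.26). Under median, poly-A spike, trimmed mean, loess and quantile centring, the ratio of Acly stayed between -1.38 and -1.23, that of Fasn between -1.22 and -1.07 and that of Mlxipl between -0.75 and -0.64. Fads1 ranged from -0.67 to -0.54 and was inside the 1.5-fold mark under quantile normalization. Scd1 ranged from -0.57 under quantile normalization to -0.12 under trimmed mean scaling. Scd2 changed side, from -0.20 under quantile normalization to 0.21 under trimmed mean scaling. The 24 probe sets of poly-A spikes, transcripts meant to be mixed into RNA ahead of labelling, had a median log2 ratio of -0.93. That was close to the array-wide shift of -0.97. The 18 of hybridisation spikes, meant to be added after labelling, had 0.12. Both kinds were picked by probe set name, and whether the spikes were added to these samples was not checked.

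**Figure D4:**
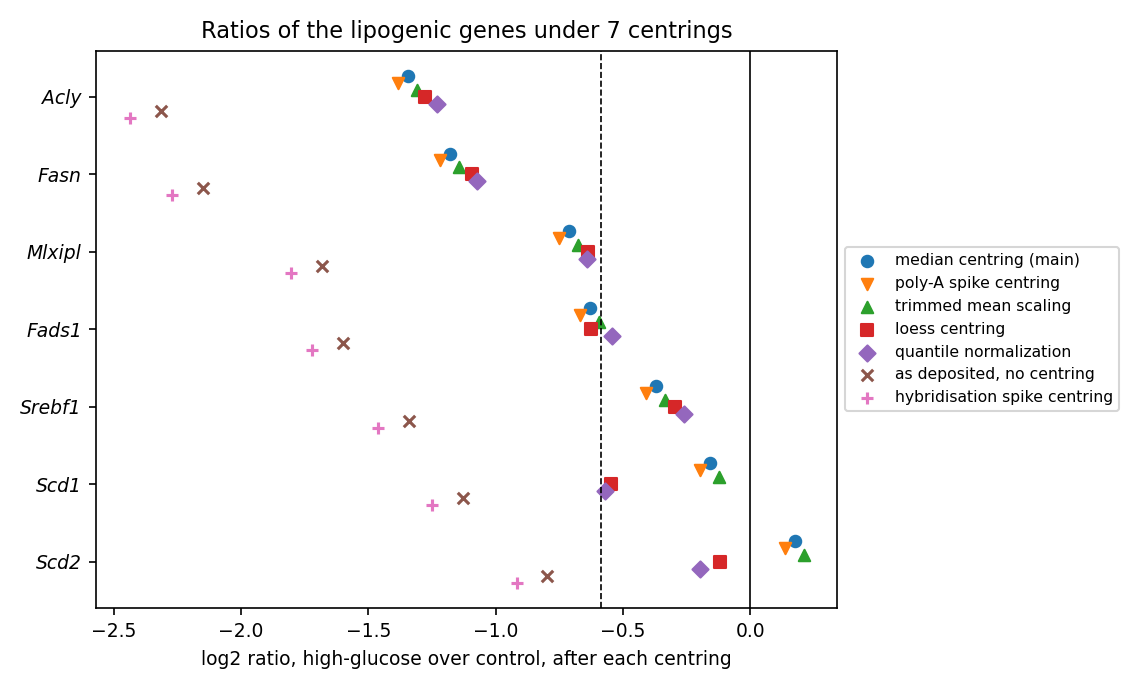
Log2 ratio of high-glucose over control (x axis) for each gene (y axis) under 7 centrings of the arrays, with the 1.5-fold mark dashed. Acly, Fasn and Mlxipl lie beyond the mark under all 7 centrings, while Scd2 lies on either side of 0. Without centring (crosses) or with hybridisation spikes (plus signs), all 7 genes lie lower by about the array-wide shift.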

How the data were processed

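Total RNA of 1 control and 1 high-glucose sample was measured on Affymetrix arrays. The authors deposited linear intensity values made with MAS5, per the submitters' processing notes (version and scaling target not given in the sources used here), for 22690 probe sets. The authors' deposited table gives, for 1625 probe sets, a symbol, an SLR (log2 units, to 1 decimal) and a score column that restates the SLR as a signed fold and was not used. Its direction comes from its title. Symbols were updated through RefSeq synonyms (GRCm38.p6): 1314 were current, 213 were updated and 42 probe sets had none.

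Signals were floored at 2.95, the mean of the arrays' 25th percentiles, a ratio with both signals at the floor was dropped, and log2 ratios were taken with the brightest probe set per gene. The steps were run in Python 3.11.15 with pandas 2.3.3 and statsmodels 0.14.6 and were tested on simulated data. The number of arrays limits the precision.

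Members, lists and thresholds were chosen with earlier results of these data known. All 7 members are named. From the other lists, genes that counted as expressed are named, and regulators also when they did not. The cholesterol genes are given as summaries only. All enterocyte, hepatocyte and adipocyte markers that the authors' deposited table names are given by name. The acinar markers are given as summaries, with Clps named as an example chosen after its values were seen. Alternatives covered centring, floor, filter, probe set choice, fold threshold and the source of the ratio.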

Additional observations from a re-analysis of the deposited data

How the results depend on the processing

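The median relative log2 ratio of the 6 expressed lipogenic genes was -0.67. It lay between -0.75 and -0.60 under trimmed mean, quantile, loess and poly-A spike centring and with other floors. The same range held with no filter (7 genes) and the filter at the 75th percentile (5 genes). The mean over probe sets cannot change it, because each of the 7 members has 1 listed probe set. The median was -1.64 as deposited and -1.76 with hybridisation spikes as the reference, since neither removes the array-wide shift. The spike-based references and the SLR summary without Scd2 were added after seeing the data. The count of members at least 1.5-fold lower, 4 of 6, was 2 with a 2-fold threshold, which 5.34% of expressed named genes pass. A lower threshold gave 5 of 6, but 24.5% of expressed named genes pass that lower mark, against 13.7% at 1.5-fold. At 1.5-fold, the count was 3 of 6 under quantile normalization, where 13.3% of expressed named genes pass. With the filter at the 75th percentile, which removes Mlxipl, the count was 3 of 5, where 10.2% pass. The count was 6 of 6 as deposited and with hybridisation spikes, where 77.3% and 82.5% of expressed named genes pass the 1.5-fold mark. The SLR gave 7 negative members with a median of -0.9 in the authors' deposited table, where 64% of probe sets are negative. Without Scd2, the 1 member that is not expressed, the median was -0.75 over 6. With a floor at the 40th percentile Scd2 had both signals at the floor and no ratio. No paired analysis was possible because each diet has 1 array, and leaving out an array leaves no comparison. Depth does not apply to arrays. The signals of Scd2 lay close to the floor.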
